A study of Caenorhabditis elegans with 3 samples.

Results

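The metallothionein genes of Caenorhabditis elegans, mtl-1 and mtl-2, were taken by gene symbol, and both were found among the 19194 genes of the deposited table. They were singled out with their read counts across stages already known, so every level and ratio below is a description and carries no p-value. Polyadenylated RNA of the N2 strain, the wild-type laboratory strain, was read as native RNA strands on a nanopore device from mixed-stage embryos, from L1 larvae (the larval stage that follows hatching) and from young adults. There was 1 library per stage, the labels name no treatment or mutation, and they do not say whether the larvae had been fed. Larval and adult RNA came from whole worms, in which fewer cells of a type and less RNA per cell cannot be told apart.

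Metallothioneins are small, cysteine-rich proteins that hold zinc, copper and cadmium ions through their sulfur atoms, buffering essential metals and binding toxic ones. In this worm both genes are transcribed in the intestine in response to cadmium, through the gut GATA factor ELT-2, and mtl-1 is also active in the pharynx without added metal. Excess zinc acts on mtl-1 through the nuclear receptor HIZR-1, and mtl-1 is a widely used target of the FOXO factor DAF-16, which acts when insulin signalling is low.

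Both genes lie on the minus strand of chromosome V in the Ensembl annotation (WBcel235), and each has 1 annotated transcript of 2 exons. The gene mtl-1 (K11G9.6) spans 6691371 to 6691863. Its transcript of 373 bases has a 5′ untranslated region of 31 bases, a coding sequence of 75 codons and a 3′ untranslated region of 114 bases, with an intron of 120 bases. The gene mtl-2 (T08G5.10) spans 14018270 to 14018673. Its transcript of 347 bases has a 5′ untranslated region of 54 bases, 63 codons and a 3′ untranslated region of 101 bases, with an intron of 57 bases. No annotated gene overlaps either of them.

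Estimated reads numbered 941707 in embryos, 1017061 in L1 larvae and 1611049 in young adults. Stage markers mostly followed the labels. Of 10 embryo markers, 7 had enough reads. The L1 library had 7 lower and 0 higher than the embryo library, against 33.1% and 13.4% of all genes. With TMM scaling, which leaves genes with extreme ratios out of the library factors, 4 were lower. In young adults 4 of 7 were lower than in embryos (3 with TMM scaling), against 29.3% of all genes. Of 5 tested, 3 (pie-1, pos-1 and mex-5) were higher in young adults than in L1 larvae, against 14.5%. Of 10 young adult markers (yolk, sperm and eggshell genes), 10 were higher in the young adult than in the L1 library, against 14.5% of all genes. The same adult markers were nevertheless present in the L1 library at 750 reads per 1000000 library reads (RPM), against 106 in the embryo library and 7947 in the young adult library. Of 7 neuron markers with enough reads, 4 were higher in L1 larvae than in embryos and 0 lower, against 13.4% and 33.1% of all genes. In young adults 5 of 7 were lower than in L1 larvae and 0 higher, against 14.2% and 14.5%. The 8 neuron markers listed summed to 642, 3985 and 433 RPM in embryos, L1 larvae and young adults. The 4 higher in L1 larvae were egl-3, egl-21, flp-1 and flp-9, and the rest were not called in that pair. The levels of snb-1 were 465, 332 and 244 RPM, and of rab-3 29.7, 21.6 and 2.48. Those of unc-64 were 30.8, 52.1 and 19.2, and of unc-104 7.43, 9.83 and 1.24. Body wall muscle markers, 6 genes, summed to 1271, 3220 and 2748 RPM, with 1782 of the L1 level from mlc-3. In L1 larvae 3 were higher and 0 lower than in embryos, against 13.4% and 33.1% of all genes. From L1 larvae to young adults 1 was higher (tnt-2, not with TMM scaling) and 1 lower (myo-3), against 14.5% and 14.2%. The part of these tissues and of the adult markers in the results was not tested.

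The 2 genes had different stage profiles, although both were highest in the L1 library. The gene mtl-1 was read almost entirely in L1 larvae. It had 0 reads in embryos, 650 in L1 larvae and 5 in young adults. Its level was 639 RPM in L1 larvae, with an exact 95% Poisson interval of 591 to 690, and 3.1 in young adults (1.01 to 7.24). The embryo count of 0 allows up to 3 reads, or 3.19 RPM, so the embryo and young adult levels of mtl-1 could not be put in order. These intervals, and all others here, cover counting error only.

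The gene mtl-2 was read at all 3 stages. It had 10 reads in embryos, 251 in L1 larvae and 148 in young adults. Its level was 10.6 RPM (5.09 to 19.5) in embryos, 247 (217 to 279) in L1 larvae and 91.9 (77.7 to 108) in young adults. The order L1 larva, young adult, embryo held with no overlap of neighbouring intervals. If the 3 scaled levels of a gene are set to sum to 100%, L1 larvae held 99.5% of mtl-1 and 70.7% of mtl-2, while young adults held 0.483% and 26.3%.

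Pairs of libraries were compared by the ratio of read shares with its exact conditional binomial 95% interval. A gene needed 20 reads or more over both libraries, and a call of higher or lower required that the whole interval lie at least 2-fold from 1. Against embryos, mtl-1 was at least 163-fold higher in L1 larvae by the lower bound of its interval, and 201-fold when the embryo count was set to 3 reads. The gene mtl-2 was 23.2-fold higher (12.4 to 49.1). Over all genes, 13.4% of 8382 were called higher in this pair. From L1 larvae to young adults mtl-1 was 206-fold lower (87.8 to 636) and mtl-2 was 2.69-fold lower (2.18 to 3.31), where 14.2% of 8043 genes were called lower.

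Between young adults and embryos only mtl-2 had enough reads for a ratio. It was 8.65-fold higher in young adults (4.57 to 18.4), a call made for 13.2% of 8636 genes. The gene mtl-1, with 5 young adult reads and 0 embryo reads, lay under the read minimum and was given no ratio. A call for L1 over both other libraries was made for 7.86% of 7134 genes with enough reads in both pairs. The full order of mtl-2, with all 3 pairs called, was shared by 92 genes, or 1.38% of 6658. The calls of mtl-1, with an untested pair counted as not called, were made for 455 of all 19194 genes, mtl-1 among them. Since the members were picked for these profiles, nothing is read from those shares.

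**Figure D1:**
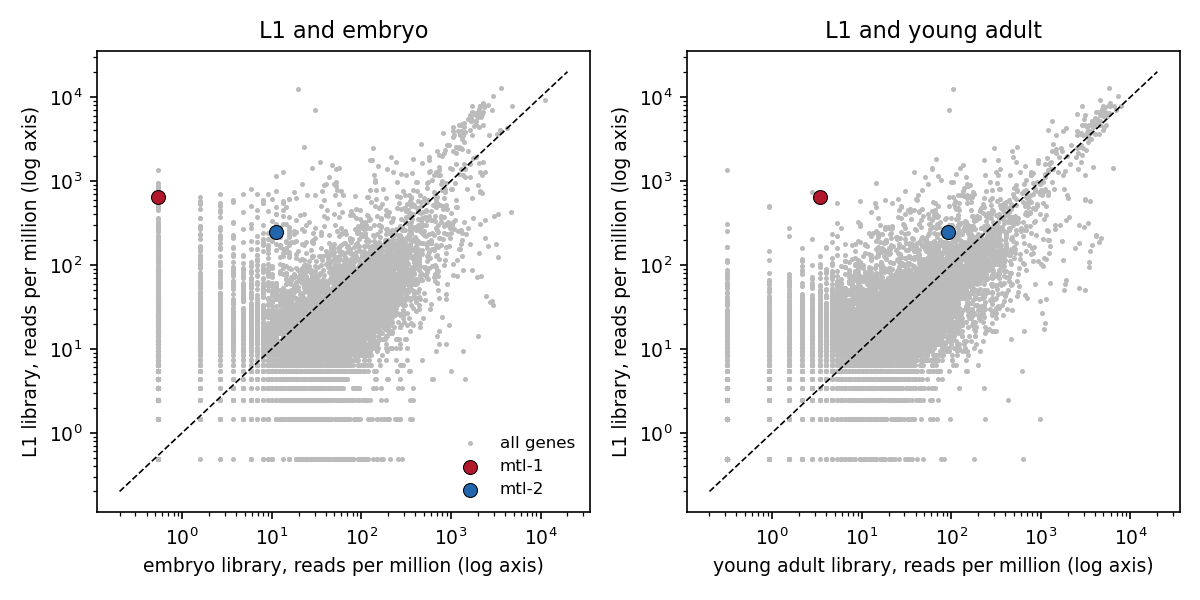
RPM (log axes, 0.5 read added) in the L1 library against the embryo library (left) and the young adult library (right); grey points are 9662 genes whose 3 counts sum to 20 or more, and the dashed line marks equal levels. Both metallothionein genes lie above the line in both panels, mtl-1 at the left edge for embryos with 0 reads, and mtl-2 close to the line for young adults at 2.69-fold.

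The balance between the 2 genes changed with stage, a comparison within each library that does not depend on how libraries are scaled. In L1 larvae mtl-1 supplied 650 of 901 metallothionein reads, or 72.1% (exact binomial interval 69.1 to 75). In young adults it supplied 5 of 153, or 3.27% (1.07 to 7.46), and in embryos 0 of 10, which allows a share of up to 30%. The 5 young adult reads of mtl-1 are a rounded sum of fractions, described with the isoform rows, and with 1 read in their place the share was 0.671% (0.017 to 3.68). The L1 interval is apart from the other 2, whereas the embryo and young adult shares cannot be distinguished at these depths.

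Scaled by transcript length, levels of the 2 genes can be set beside each other. In L1 larvae mtl-1 stood at 1713 RPM per kilobase of transcript (1584 to 1850) and mtl-2 at 711 (626 to 805), so mtl-1 was 2.41-fold higher per length (2.08 to 2.8). In young adults mtl-1 stood at 8.32 (2.7 to 19.4) and mtl-2 at 265 (224 to 311), so mtl-2 was 31.8-fold higher (13.3 to 99.4), or 159-fold (28.1 to 6326) with 1 mtl-1 read. In embryos mtl-2 stood at 30.6 (14.7 to 56.3). By RPM per kilobase mtl-1 ranked 118 of 13157 detected genes in the L1 library and 6326 of 12580 in the young adult library. The ranks of mtl-2 there were 231 and 613, and 4320 of 11982 in the embryo library. These ranks rest on the division by length, which lifts short transcripts such as these above longer ones with as many reads. Reads of native RNA strands need not rise with transcript length, and ranks by RPM alone were not taken. Joint metallothionein reads were 10.6 RPM in embryos, 886 in L1 larvae and 95 in young adults.

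**Figure D2:**
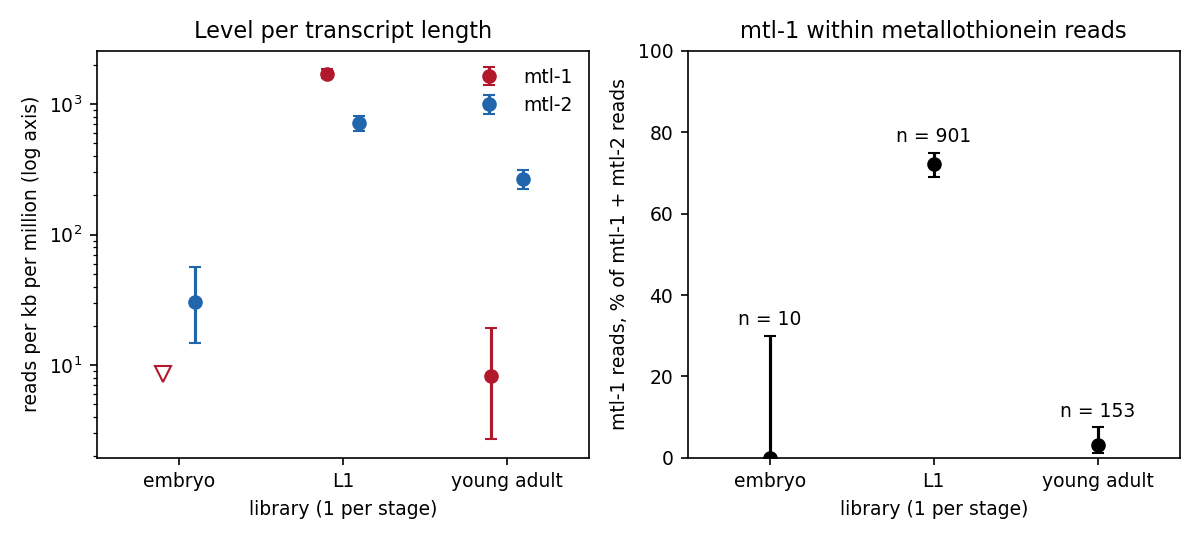
Left, level of each gene in RPM per kilobase of transcript (log axis) by library, with exact 95% Poisson intervals; the open triangle for mtl-1 in embryos is the level of 3 reads, the limit that 0 reads allows. Right, mtl-1 as a percentage of mtl-1 plus mtl-2 reads with the number of reads, 72.1% in L1 larvae against 3.27% in young adults. Intervals are exact binomial, except that the embryo limit of 30% is the share of 3 reads.

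The young adult count of mtl-1 was a sum of small fractions. The estimate before rounding was 4.87 reads, spread as fractions over 21 isoform rows (an isoform row is 1 transcript form of a gene in the deposited table). In all 21 of those rows the deposited library values split the pooled value in a ratio of whole numbers in which young adults held 1 part, to within 1e-08 of the pooled value, for example 74 L1 parts to 1 in the second row. How many distinct young adult reads stand behind these fractions cannot be told from the table. Taking the count as 1 read moved the log2 ratio of young adults over L1 larvae from -7.55 to -9.42 and kept the call; this alternative was chosen after seeing the data.

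Isoform rows were more numerous for mtl-1 than for mtl-2. Of 46 rows listed for mtl-1, 37 held reads in a library, and 9 held at least 10 reads over the 3 libraries. Among 107 genes within 1.5 times its depth and transcript length the median was 13 rows with reads, and 1 gene had more rows than mtl-1. The gene mtl-2 had 16 rows with reads of 19 listed, against a median of 11 among 106 genes chosen in the same way, of which 25 had more rows. Most rows are named after a single read and the deposited tables give no exon structure, so ends, splice sites and truncated reads could not be told apart.

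The annotated transcript was not the main row of either gene. For mtl-1 it held 8.75% of the pooled reads, while the leading row, named after a read, held 35.7% and 3 rows together held most of them. For mtl-2 the annotated transcript held 0.6%, and the leading row 56.4%. Among the 107 genes matched to mtl-1 the median share in annotated rows was 14.1%, and among the 106 matched to mtl-2 it was 12.9%. Low shares were thus common, but both genes lay below their median, mtl-2 by far the more. How many matched genes had a share as low as that of mtl-2 was not counted. Among the larger mtl-1 rows, 4 rows of at least 5 reads carried the same pooled value as another row to 6 decimals.

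The make-up of mtl-2 differed between L1 larvae and young adults in its second row. The leading row held 153 of the L1 reads, or 61.1% (54.6 to 67), and 72.6 of the young adult reads, or 49% (41 to 57.7). The second row held 59.1 L1 reads, or 23.6% (18.4 to 29.2), and 66.5 young adult reads, or 44.9% (37.1 to 53.7). The intervals of the leading row overlap and those of the second row do not, and 1 of 16 rows was apart in this way. In embryos the leading rows held 48.2% and 44.1%, each on about 5 reads, with intervals too wide to place them. At least 1 such row was found in 43.4% of 878 genes with at least 100 reads in both libraries, so a row that differs is common in these data. For mtl-1 the only library with enough reads was L1, where the leading row held 35.9% (32.2 to 39.7).

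**Figure D3:**
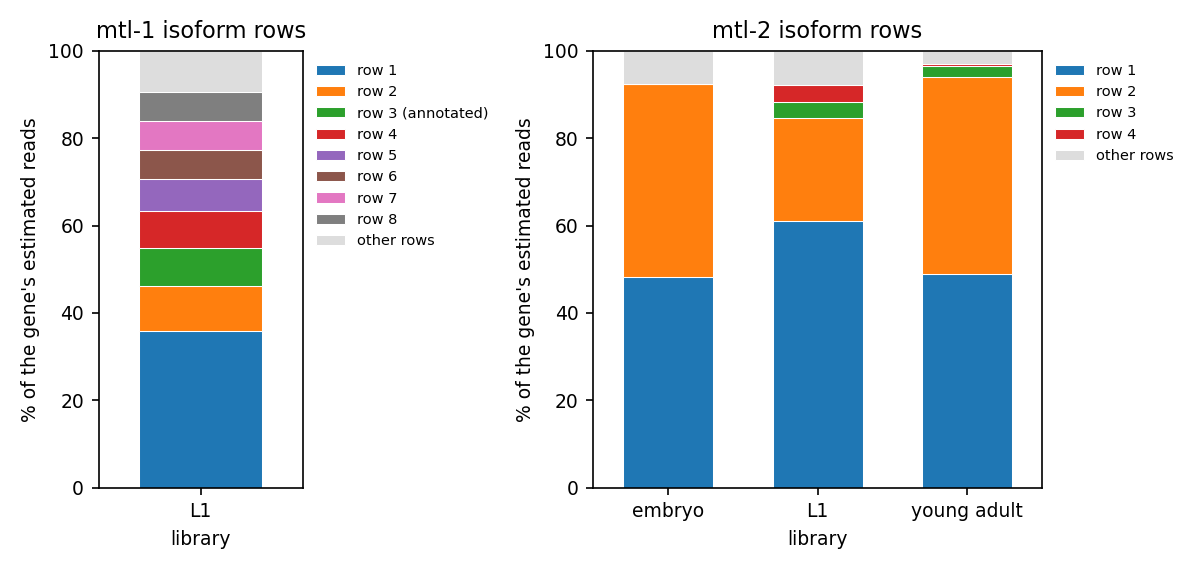
Percentage of each gene's estimated reads in its isoform rows, ordered by pooled reads, for mtl-1 in the L1 library (left; the other libraries hold 0 and 5 reads) and for mtl-2 in the 3 libraries (right; 10, 251 and 148 reads). Row 2 of mtl-2 holds 23.6% in L1 larvae and 44.9% in young adults.

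Factors known to act on the metallothionein genes were listed together with stress factors and genes of the insulin pathway, 17 genes in all. Of 13 with enough reads in both L1 pairs, 1, pqm-1, was called higher in L1 larvae than in both other libraries. Over all genes that share was 7.86% of 7134, so 1 of 13 is close to it. In the list 1 was higher and 3 lower in L1 larvae than in embryos among 15 with enough reads, and with TMM scaling 2 were higher and 0 lower. In this pair 13.4% of all genes tested were higher and 33.1% lower. The median log2 ratio of the list was -0.93, beside -1.14 for all genes. From L1 larvae to young adults 1 was higher and 2 lower of 13, with a median of -0.93 beside 0.32 for all genes, where 14.5% of all genes tested were higher and 14.2% lower. The second gene lower in this pair was jun-1, for a subunit of the AP-1 factor, with 21, 48 and 18 reads, and with TMM scaling it was also higher in L1 larvae than in embryos. The gene pqm-1 encodes a zinc finger factor that binds near DAF-16 targets. It had 11, 82 and 41 reads in embryos, L1 larvae and young adults, 6.9-fold higher in L1 larvae than in embryos (3.66 to 14.4) and then 3.17-fold lower (2.15 to 4.73). The gut factor gene elt-2, named here for its role with its values known, went from 47.8 to 23.6 to 11.2 RPM, and the young adult level was lower than the embryo level by 4.28-fold (2.43 to 7.85), not called with TMM scaling. By read shares 29.3% of all genes tested were lower in that pair. The gene hizr-1 had 0, 2 and 0 reads, and daf-16 is listed at 0 in all 3 libraries, so neither could be followed. Among the regulators with most reads, the kinase gene akt-1 had 160, 154 and 181 reads and was called in no pair, and neither was the kinase kinase gene mek-1. The stress factor gene skn-1 had 188, 106 and 87 reads and was called only as lower in young adults than in embryos, by 3.7-fold (2.85 to 4.82) and not with TMM scaling. The lipid phosphatase gene daf-18 was 4.15-fold lower in L1 larvae than in embryos, again not with TMM scaling, and 3.52-fold higher in young adults than in L1 larvae (2.31 to 5.57).

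By read shares, zinc transporter and zinc storage genes had their lowest joint level in L1 larvae, where many genes were lower than in embryos. Their 21 genes together had 1168 RPM in embryos, 340 in L1 larvae and 518 in young adults. In L1 larvae 0 were higher and 6 lower than in embryos of 14 with enough reads, a median log2 ratio of -1.59 beside -1.14 for all genes, but with TMM scaling 1 was higher and 1 lower. By read shares 13.4% of all genes were higher and 33.1% lower. The member lower in both scalings was zipt-7.2, of the ZIP zinc importer family, with 316 embryo reads, 41 L1 reads and 90 young adult reads, 8.32-fold lower in L1 larvae (6 to 11.8). The others with most reads were toc-1, zipt-11 and zipt-1, at 4.08-fold, 3.81-fold and 3.74-fold lower in L1 larvae, none of them called with TMM scaling. From L1 larvae to young adults 1 of 12 was higher and 0 lower, against 14.5% and 14.2% of all genes. The median log2 ratio of the list in that pair was 0.59, beside 0.32 for all genes.

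Among genes linked to cadmium and to other metals, single members peaked in L1 larvae and others were lowest there. Of the 6 cadmium-linked genes tested, 2 had higher and 1 had lower levels in L1 larvae than in embryos (3 and 1 with TMM scaling), against 13.4% and 33.1% of all genes. In young adults 3 of 9 were higher than in L1 larvae and 1 lower, against 14.5% and 14.2%. The P-glycoprotein transporter gene pgp-1 had 8, 51 and 22 reads, with the same calls as mtl-1. The gene hmt-1 went the other way, with 36, 2 and 37 reads. It was 19.4-fold lower in L1 larvae than in embryos (5.01 to 167) and 11.7-fold higher in young adults than in L1 larvae (3.01 to 100), called in both scalings. The cadmium-responsive cdr-4 had its highest level in young adults, at 15.9, 33.4 and 109 RPM, and was 3.25-fold higher in young adults than in L1 larvae (2.24 to 4.84). Its relative cdr-2 was 4.35-fold higher in L1 larvae than in embryos (2.17 to 9.66) and was not called between L1 larvae and young adults, while cdr-6, at 51, 63.9 and 68.3 RPM, was called in no pair.

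Of the 8 iron, manganese, copper and heme genes tested, 2 had higher and 2 had lower levels in L1 larvae than in embryos, or 3 and 0 with TMM scaling, against 13.4% and 33.1% of all genes. Between L1 larvae and young adults, 3 of 9 were higher in young adults and 1 lower, against 14.5% and 14.2% of all genes. The 2 ferritin genes, which encode iron storage proteins, differed in profile. The gene ftn-1 had 5, 85 and 8 reads, 15.7-fold higher in L1 larvae than in embryos (6.49 to 49.7) and 16.8-fold lower in young adults than in L1 larvae (8.16 to 40.2). The gene ftn-2 had 358, 411 and 1069 reads and was called in no pair, although with TMM scaling it was higher in young adults than in embryos. The gene hrg-7, of the heme-responsive genes, was 19-fold higher in L1 larvae than in embryos (10.4 to 38.6) and was not called between L1 larvae and young adults. The copper chaperone gene cuc-1 was 4.64-fold higher in young adults than in L1 larvae (3.2 to 6.93), and the aconitase gene aco-1 was called in no pair.

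Redox genes were mostly without calls. Of the 15 tested, 2 had higher and 1 had lower levels in L1 larvae than in embryos (3 and 0 with TMM scaling), against 13.4% and 33.1% of all genes. In young adults 1 was higher and 2 lower than in L1 larvae, against 14.5% and 14.2%. The genes sod-3, for a mitochondrial manganese superoxide dismutase, and sod-4, for an extracellular copper-zinc enzyme, had the calls of mtl-1. The former had 8, 141 and 24 reads and the latter 27, 186 and 28. The peroxiredoxin genes prdx-2 and prdx-3, the cytosolic sod-1 and the glutathione reductase gene gsr-1, with most reads on this list, were called in no pair.

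Genes linked to DAF-16 had the highest count of L1 peaks among the 7 lists. In L1 larvae 9 of 18 were higher and 4 lower than in embryos, or 11 and 2 with TMM scaling, against 13.4% and 33.1% of all genes. In young adults 2 of 18 were higher and 7 lower than in L1 larvae, against 14.5% and 14.2%. Of 17 with enough reads in both pairs, 6 were called higher in L1 larvae than in embryos and lower in young adults than in L1 larvae, against 7.86% of all genes tested, and over the 7 lists together it was 12 of 81. Among the marker lists, outside these 7, it was 4 of 7 for neurons and 2 of 4 for pharynx. It was 0 for embryo, young adult and body wall muscle markers. These lists were chosen with earlier results known, so the counts describe and do not test. Besides sod-3, the small heat shock gene hsp-12.3 had 12, 555 and 22 reads and dod-3 had 7, 204 and 4, both with the calls of mtl-1. The drop of dod-3 from L1 larvae to young adults was 80.8-fold (31.1 to 299), on 4 young adult reads. The alcohol dehydrogenase gene sodh-1 had 28, 7219 and 151 reads, and the antimicrobial genes lys-7 and spp-1 had 0, 361 and 57 and 2, 510 and 113. These 3 genes had the calls of mtl-2 in every pair. Other profiles occurred too. The heat shock genes hsp-16.2, with 411, 30 and 40 reads, and hsp-16.41, with 690, 40 and 51, were highest in embryos. They were 14.8-fold (10.2 to 22.2) and 18.6-fold (13.5 to 26.3) lower in L1 larvae, called in both scalings. The small heat shock gene sip-1 had 959, 307 and 2634 reads, 5.42-fold higher in young adults than in L1 larvae (4.81 to 6.12). The glyceraldehyde phosphate dehydrogenase genes gpd-2 and gpd-3 were 3.72-fold and 3.43-fold higher in L1 larvae than in embryos and were not called between L1 larvae and young adults.

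**Figure D4:**
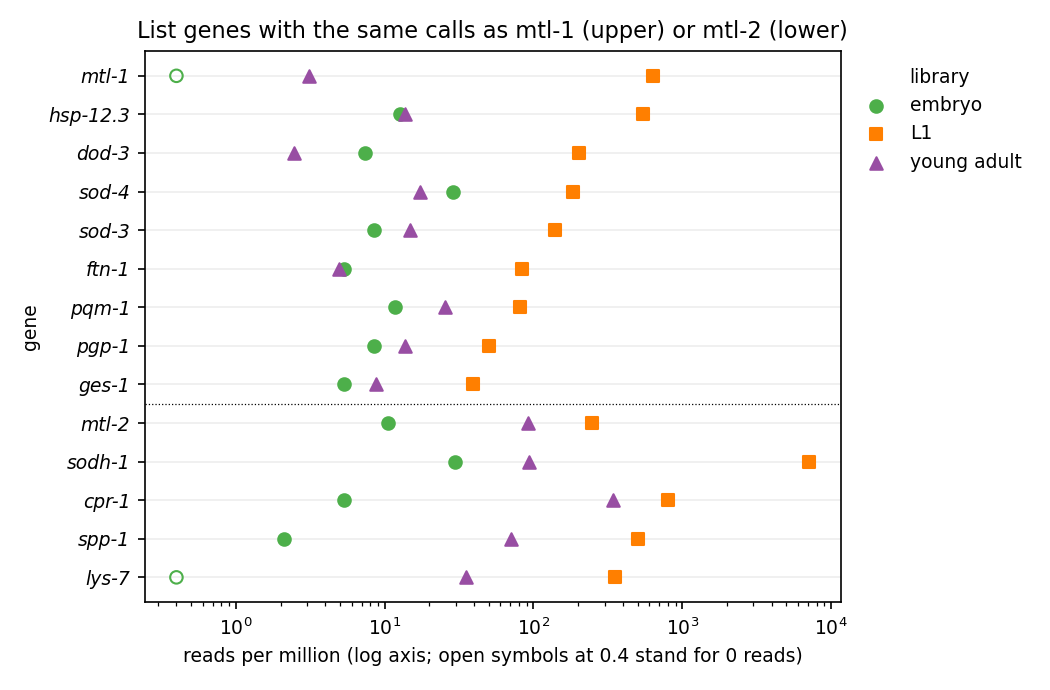
RPM (log axis) in the 3 libraries for mtl-1 and the 8 list genes with its calls (upper block) and for mtl-2 and the 4 list genes with its calls (lower block); open symbols stand for 0 reads. The L1 library is highest in every row because the rows were picked by those calls, and young adults lie above embryos in the lower block. Over all genes, 455 had the calls of mtl-1 and 92 those of mtl-2.

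Summed gut transcripts were not lower in young adults than in L1 larvae, but the sum rested on single genes. The 19 gut genes together had 1807 RPM in embryos, 8659 in L1 larvae and 14101 in young adults. Without far-2 the L1 and young adult sums were 7242 and 7770 RPM, and without far-2 and asp-1 they were 5561 and 4976. In L1 larvae 8 of 16 were higher and 2 lower than in embryos (8 and 0 with TMM scaling), against 13.4% and 33.1% of all genes. In young adults 3 were higher and 2 lower than in L1 larvae of 18 with enough reads, close to the 14.5% and 14.2% of all genes. The aspartyl protease genes asp-1, asp-3 and asp-6 and the lipid-binding far-2 had most reads. From L1 larvae to young adults far-2 went from 1417 to 6331 RPM and was called higher. The levels of asp-1 went from 1681 to 2794 RPM, of asp-3 from 1273 to 1201 and of asp-6 from 2487 to 1698, and none of these 3 was called. The 2 gut genes lower in young adults were ges-1, a gut esterase gene with 5, 40 and 14 reads, and the cysteine protease gene cpr-1 with 5, 811 and 553. The calls of ges-1 matched those of mtl-1, its young adult and embryo pair being under the read minimum, and the calls of cpr-1 those of mtl-2, with cpr-1 2.32-fold lower in young adults than in L1 larvae (2.08 to 2.59). Pharyngeal genes, the other site known for mtl-1, had 401, 939 and 534 RPM over 6 genes. The muscle genes myo-1 and tnc-2 had the calls of mtl-1 but smaller ratios, at 5.2-fold (3.29 to 8.49) and 3.1-fold (2.59 to 3.72) lower in young adults than in L1 larvae. The pharyngeal myosin gene myo-2 had 22, 74 and 23 reads, was also lower in young adults than in L1 larvae, and was higher in L1 larvae than in embryos with TMM scaling only. The myosin light chain gene mlc-1 had 189, 429 and 627 reads and was called in no pair. At 201, 422 and 389 RPM it was the largest part of the pharyngeal sum in each library, so that sum rested much on this gene. The factor genes pha-4, with 31, 4 and 2 reads, and ceh-22, with 25, 8 and 0, were highest in embryos. All 6 are given here after their values were seen. The part of gut and pharynx amounts in the metallothionein levels was not tested.

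The genes with profiles most like each member were sought among 2857 genes with 200 reads or more, by the distance between their 3 scaled levels (0 for equal profiles and 1 for profiles with no stage in common), over 3 libraries only. For mtl-1 they were ilys-3, an invertebrate-type lysozyme gene with 0, 279 and 2 reads, the collagen gene col-43 with 0, 224 and 2, and T26H5.9, C23G10.11 and F46C5.1. For mtl-2 they were C42D4.1 with 17, 637 and 371 reads, poml-3, T10B5.7, the short-chain dehydrogenase gene dhs-20 and H40L08.7. The distances were 0.0003 to 0.0036 for mtl-1 and 0.0098 to 0.0281 for mtl-2, while mtl-1 and mtl-2 were 0.289 apart. With DESeq2 scaling 5 of 5 genes remained for mtl-1 and 3 of 5 for mtl-2.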

How the data were processed

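Per the labels' protocols, polyadenylated RNA was sequenced with a nanopore direct RNA kit. The submitters' processing notes name minimap2 2.14, while the genome build, isoform tool and read filters were not stated in the labels or headers. Estimated counts from the authors are given per isoform row and library in the deposited table of the series, mostly fractional and not scaled for depth, in which 1e-08 was taken as 0. The deposited per-sample tables hold a coverage signal headed Cpm, proportional to those counts and used here for gene symbols and as an alternative. Counts were summed per gene, rounded to whole reads and divided by the library total (941707 to 1611049 reads). Log2 ratios have 0.5 read added. With 1 library per stage no test was made, and intervals are exact 95% intervals for counting error. The exceptions are the upper limits of mtl-1 in embryos, where the count of 0 was set to 3 reads. Gene positions and lengths come from Ensembl release 115 (WBcel235), with the longest transcript per gene for ranks. Of 125 listed genes 119 were found in the table. Named genes were, per list, the 4 with most reads and those with the calls of mtl-1 (an untested pair counted as not called) or, added later, of mtl-2, and per member the 5 most alike. Other genes, such as elt-2, jun-1, hizr-1, daf-16, hmt-1, hsp-16.2, hsp-16.41 and the stage and tissue markers, were named with their values known. The members and lists were chosen with earlier results of these data known. Whole-number splits were sought up to a denominator of 500 within 1e-08. Python 3.11.15, numpy 2.4.6, pandas 2.3.3, scipy 1.17.1, matplotlib 3.10.9, R 4.3.3, edgeR 4.0.16 (TMM factors) and DESeq2 1.42.0 (size factors) were used. The calls were also run on reads simulated with counting error alone, which cannot speak to variation between libraries.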

Additional observations from a re-analysis of the deposited data

How the results depend on the processing

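No paired analysis was possible because there was 1 library per stage, and no replicate could be left out. The 5 called member ratios had 26 alternatives that could change a call, of which 22 kept it and 4 lost it, with 0 reversed; 10 others (coverage signal, looser bound) could not change it by construction. With 1 young adult read of mtl-1, chosen after seeing the data, its share of metallothionein reads moved from 3.27% to 0.671% and the ratio of mtl-2 to mtl-1 per kilobase from 31.8 to 159. With annotated rows only, mtl-2 had 0, 1 and 1 reads and its log2 ratios were 1.62 (L1 over embryo), -0.88 (young adult over L1) and 0.74 (young adult over embryo), uncalled on so few reads, while mtl-1 kept its calls at 6.88 and -7.73 and, with 0 reads in both, had no young adult over embryo ratio. At 4-fold, the young adult over L1 ratio of mtl-2 (log2 -1.42) was not called. TMM factors moved the median log2 ratio of all genes by 0.87, -0.07 and 0.80 in the pairs L1 over embryo, young adult over L1 and young adult over embryo. The log2 ratios of mtl-2 then were 5.34, -1.50 and 3.85. Shares of the leading rows moved within their intervals in 5 of 5 cases. Counts of called genes moved by over 1.5 times in 28 of 54 cases. Lower in L1 over embryo were 2771, against 1132 (TMM), 1078 (DESeq2), 532 (annotated rows), 981 (4-fold), 5024 (interval leaves out 1) and 1393 (100 reads). Higher there were 1120, against 333 (annotated rows), 739 (4-fold) and 515 (100 reads). Higher in young adult over L1 were 1163, against 302, 332, 749 and 3194, and lower 1142, against 293, 528, 434 and 2268 (annotated rows, 4-fold, 100 reads, interval leaves out 1). Higher in young adult over embryo were 1140, against 353, 638, 569 and 1913 in that order and 1737 with DESeq2, and lower 2533, against 584, 1321, 1066 and 4604, with 1491 (TMM) and 1447 (DESeq2). The cause was not tested, beyond the fewer reads or genes that some settings keep.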

Other observations

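Genes next to the metallothionein genes on chromosome V were read little. Upstream of mtl-1 on the same strand, 383 bases away, W02F12.8 had 14, 23 and 1 reads in embryos, L1 larvae and young adults, and K11G9.5, 2878 bases away on its other side, had 0, 5 and 2. Head to head with mtl-2, 92 bases away on the plus strand, T08G5.1 had 0 reads in each library, and so did srh-308, 693 bases away. The endodermal GATA factor gene end-3, 2289 bases from mtl-2, had 4 embryo reads and 0 in both other libraries.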
